A study of Mus musculus with 4 samples.

Results

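The Rab GTPases analysed here are the 49 Rab genes of the deposited expression table that met a rule on name and level, out of 49490 genes in all. The rule took symbols made of Rab, a number and an optional letter, of which the table held 59. It left out 1 symbol by name and 9 with a mean normalized count under 20 over the 4 libraries. Membership thus rested on the mean of the 4 libraries, which a high level in 1 group can also raise past the limit. The lowest mean inside the rule was that of Rab13 (20.8) and the highest outside it that of Rab3b (13.7). Of the 49, 6 had a mean under 20 in the libraries labelled WT and entered through the libraries labelled knockout alone, namely Rab13, Rab30, Rab36, Rab38, Rab39 and Rab44.

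The cells were CD8+ T cells of mice, taken from spleen and lymph node and activated in vitro, and 4 libraries were made from their polyadenylated RNA. In the 2 libraries labelled WT the cells carried the Irf8fl/fl genotype, a floxed allele of the transcription factor interferon regulatory factor 8. In the 2 labelled Irf8 knockout they were Irf8-/-. The study compared them to find genes regulated by IRF8. The sources used here do not give the age of the mice, the Cre driver, or the activating agent and its duration. No label says whether replicate libraries stem from different mice or cultures, so each p measures the spread between these libraries only, which may be technical.

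Rab proteins are small GTPases that mark the membranes of the secretory and endocytic routes. A Rab is loaded with GTP by an exchange factor, recruits effectors such as motors and tethers to its vesicle, and is switched off by a GTPase-activating protein, mostly one with a TBC domain. A lipid tail, added by prenylation, anchors it in the membrane, and the carrier GDI returns it to the cytosol. In cytotoxic T cells this traffic delivers lytic granules and receptors to the contact with a target cell. In dendritic and other myeloid cells it serves uptake, lysosome-related organelles and the display of antigen.

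Recovered depth ranged from 58899365 to 59724952 reads per library. Irf8 itself had normalized counts of 6364 and 6081 under the WT label and of 89508 and 90222 under the knockout label. Its RNA was therefore 14.4-fold higher in the libraries labelled knockout (log2 fold change 3.85, SE 0.04, adjusted p = 4.32e-08 by limma), which goes against the label, and reads outside a deleted exon cannot check it. Groups are named by their labels throughout, and each fold change is knockout-labelled over WT-labelled. Markers of other cells moved with the labels. Of 14 plasmacytoid dendritic cell markers 14 were higher in the libraries labelled knockout (summed level 24048 to 24396 against 382781 to 383119). Of 13 conventional dendritic cell markers 12 were higher (sum 48688 to 49148 against 465718 to 470319), and none of these 27 markers was at 0 in either group. Of 12 macrophage or monocyte markers 2 were higher and 7 lower, with sums of 48277 to 48673 against 44941 to 46386. Of 10 B cell markers tested 5 were higher (sum 7557 to 7938 against 38651 to 38870), while the B cell markers Pax5 and Ms4a1 were each between 0 and 18.4 in every library and Ebf1 was at 0 under the WT label. Of 8 neutrophil or mast cell markers tested 7 were higher, with Mpo, Elane, Fcer1a and Ms4a2 at 0 in the libraries labelled WT and sums of 257 to 352 against 2329 to 2438. Of 11 CD8 T cell markers 10 were lower, with sums of 565878 to 570131 against 398252 to 401597. Of 5 NK cell markers tested 0 were higher and 3 lower, with sums of 40073 to 41745 against 26856 to 28133. A few genes made up most of some sums. For NK cells these were Gzma (means 24243 against 16230) and Eomes (14638 against 10098), while Ncr1 was low and not called (19.9 against 20). For B cells it was Ighm (7419 against 37077). For macrophages or monocytes these were Ccr2 (30623 against 22626) and Lyz2 (12204 against 8379). Such sums describe those genes more than a cell type. The part of these cells in the Rab results was not tested, and in bulk RNA fewer cells of a type and less RNA per cell cannot be told apart.

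The sequences of members on which the results turn most are shown first. Rab7 and Rab7b are the clearest case of a like-named pair that differed in response, and the start of their coding sequences is set out here (GENCODE M21, GRCm38, bases 1 to 90 from the start codon, 5′ to 3′, with Rab7 on the minus strand of chromosome 6 and Rab7b on the plus strand of chromosome 1). Capitals mark the codons of the loop that grips the phosphates of GTP, found in frame as GG, any 13 bases, GG, any 1 base and AA.
Rab7: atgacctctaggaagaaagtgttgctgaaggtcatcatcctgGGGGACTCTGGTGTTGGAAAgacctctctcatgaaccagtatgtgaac
Rab7b: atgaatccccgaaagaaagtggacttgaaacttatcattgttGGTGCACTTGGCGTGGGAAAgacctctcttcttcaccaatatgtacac
The loop codons began within the first 120 coding bases in 44 of the 49 members. Over the full coding sequence Rab7 and Rab7b were 61.2% identical, and the longest run of identical bases in their transcripts was 18.

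RefSeq promoter windows (GRCm38.p6, the assembly also called mm10, 250 bases before to 50 after a gene's start) were at hand for 38 of the 49 members, 46 windows in all. Rab8a and its close relative Rab8b were both lower in the libraries labelled knockout, and the 250 bases before their starts are shown with CCAAT boxes (CCAAT on either strand) in capitals.
Rab8a, chr8:72160950-72161199, plus strand: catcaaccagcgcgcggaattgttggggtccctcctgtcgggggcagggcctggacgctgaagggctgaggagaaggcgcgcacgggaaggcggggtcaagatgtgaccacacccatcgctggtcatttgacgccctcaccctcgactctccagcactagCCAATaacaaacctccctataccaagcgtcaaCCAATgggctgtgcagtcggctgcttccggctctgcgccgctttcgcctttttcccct
Rab8b, chr9:66919706-66919955, minus strand: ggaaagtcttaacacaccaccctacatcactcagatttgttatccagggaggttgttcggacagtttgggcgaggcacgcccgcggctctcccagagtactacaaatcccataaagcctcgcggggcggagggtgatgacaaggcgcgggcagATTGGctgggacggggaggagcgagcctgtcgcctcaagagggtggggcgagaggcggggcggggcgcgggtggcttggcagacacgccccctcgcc
A CCAAT box was in 45.7% of the members' windows and in 37.4% of all 32851 windows. The interferon response core that IRF proteins are known to bind, GAAA, any 2 bases and GAAA on either strand, was in 1 of the 46 windows (2.17%, against 3.44% of all windows), that of Rab19. The composite of ETS and IRF factors, GGAA, any 2 bases and GAAA on either strand, was also in 1 window (2.17%, against 2.72%), that of Rab11b, whose RNA did not pass the test. The E-box CACGTG was in 5 windows (10.9%, against 7.15%), those of Rab5a, Rab20, Rab21, Rab23 and Rab24. The matches of 2 members that changed are shown within 30 bases, in capitals, with 2 overlapping interferon cores in Rab19 on the minus strand of the window.
Rab19, chr6:39381336-39381365, plus strand: gcccttgTTTCCCTTTCGCTTTCtctgtcc
Rab24, chr13:55321961-55321990, minus strand: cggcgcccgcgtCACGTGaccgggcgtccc
Both 30-base stretches lie in annotated exons, counted over any gene, while the longer windows of Rab8a and Rab8b hold 0 exonic bases. The Rab24 stretch lies outside the GENCODE bounds of Rab24 itself (55319743 to 55321946), on the side of its start. A match is a description of the letters and not a measured binding site.

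Of the 49 Rab transcripts, 18 rose and 8 fell in the libraries labelled knockout by limma at an adjusted p under 0.05, beside 19.9% higher and 13.4% lower among all 18378 genes tested. The members' shares were 36.7% and 16.3%, and 53.1% were called in either direction, beside 33.4% of all genes. By level, 45.2% of the members with a mean of at least 1000 were called, beside 45.9% of all such genes. Under 1000 it was 66.7% beside 24.2%, in a part that holds the 6 members entered through the libraries labelled knockout. Leaving aside the 6 that entered through the libraries labelled knockout, 13 of 43 were higher and 8 lower (30.2% and 18.6%), beside 19.2% and 16% of all genes with a mean of at least 20 in both groups. Between the groups there was no overlap of values in 38 of the 49, or 77.6%, where the share over all genes tested was 68.8%. The median log2 fold change was 0.09, beside 0.02 over all genes tested. As a family the Rab transcripts took nearly the same share of reads in every library: it was 0.297% and 0.283% under the WT label and 0.303% and 0.306% under the knockout label.

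The calls divide into 6 that stood with any 1 library left out and 20 that did not. Rab33b, Rab7b and Rab24 were higher, and Rab37, Rab19 and Rab8a lower, in the fit to all libraries, in the fits that left out each library in turn, and under each other setting tried. Without knockout-labelled replicate 1, and likewise without knockout-labelled replicate 2, these 3 higher and 3 lower members were the only calls among the 49, beside 7.39% and 3.78% of all genes in the first case and 7.12% and 3.43% in the second. Without WT-labelled replicate 1, 18 were higher and 8 lower (all genes 22.5% and 15%), with Rab4b lost and Rab7 gained. Without WT-labelled replicate 2, 16 were higher and 8 lower (all genes 21.5% and 13.2%), with Rab3d, Rab5b, Rab31 and Rab2b lost and Rab13 and Rab1b gained. On the recovered reads, edgeR with TMM scaling called the same 18 and 8 (all genes 20.1% and 14.4%). Over all genes, 6.65% were called higher and 3% lower in all 5 fits. With each library centred on its median, the median over all genes was -0.28, and 10 members were higher and 23 lower (all genes 13% and 39.2%). It turned the sign of 4 members called higher, Rab14 (-0.04), Rab4b (-0.13), Rab3d (-0.04) and Rab5b (-0.08), which then did not pass, so their direction depends on the scaling. With the same centring Rab6b, Rab43, Rab21 and Rab31 kept their sign but no longer passed, and 15 members that had not passed were called lower, among them Rab1a, Rab2a, Rab7, Rab10 and Rab11a. The smallest p of a two-sided exact permutation test with 2 libraries per group is 0.333, which is why none was run on single genes.

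**Figure D1:**
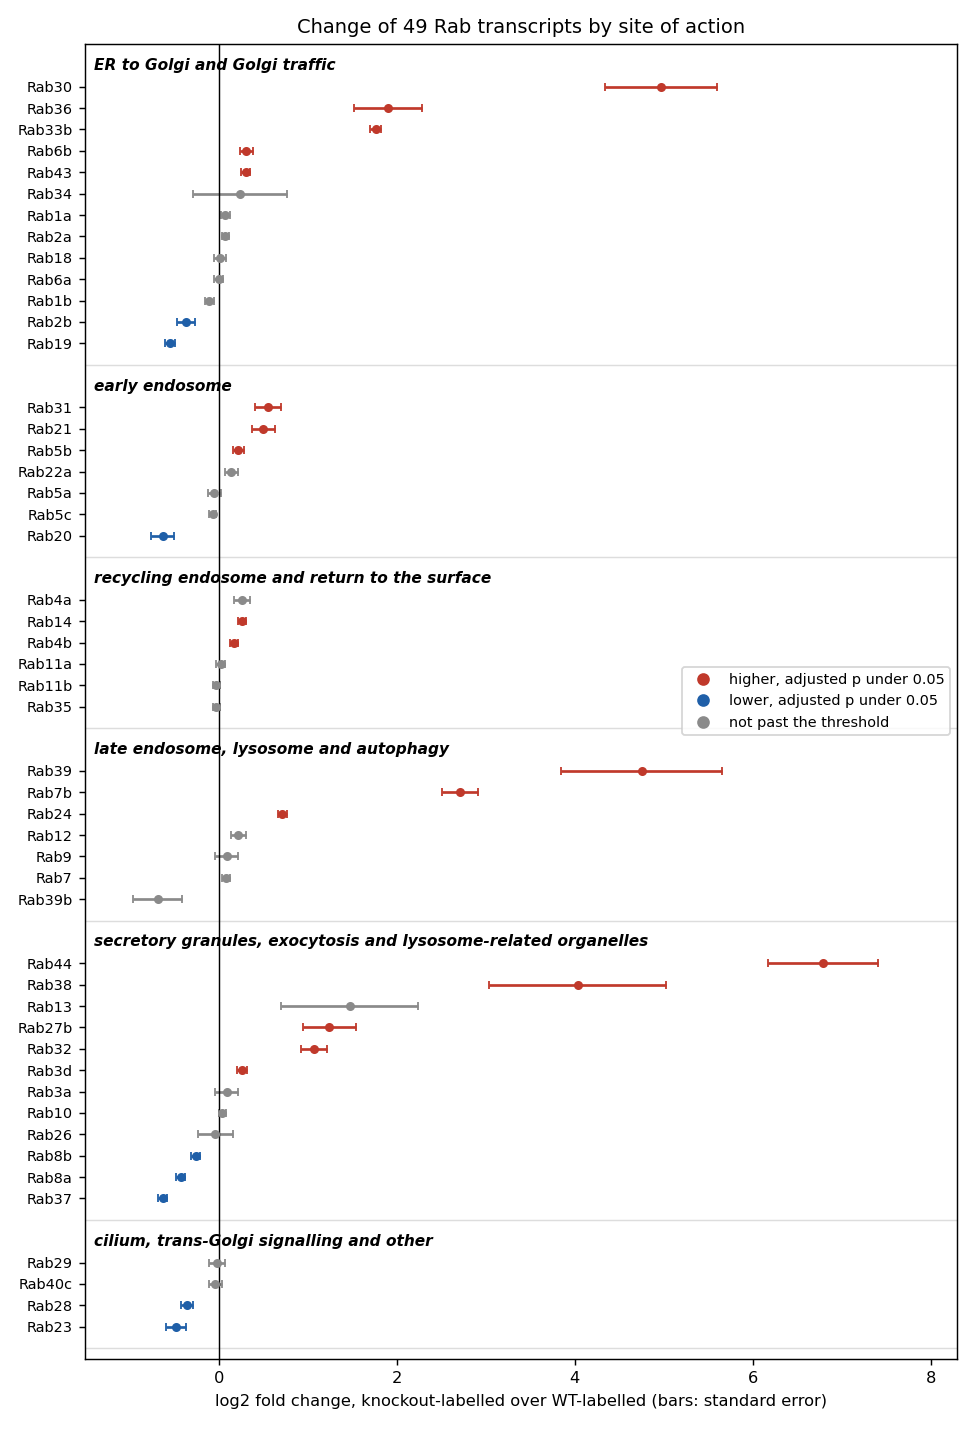
Log2 fold change of each of the 49 Rab transcripts (x axis, knockout-labelled over WT-labelled, bars are the standard error of limma's fit over 2 libraries per group), grouped by the compartment each Rab is known for and coloured by the limma call. The large changes are increases, up to the fitted 6.79 of Rab44, which depends on the pseudocount because both libraries labelled WT had 0 reads. Rab13, Rab30, Rab36, Rab38, Rab39 and Rab44 entered through the libraries labelled knockout alone, so their direction was partly set by the rule. Among the other 43 members the highest change is 2.71 (Rab7b). No decrease passes -1. Over all genes, 0.876% were called lower with a change below -1 and 10.5% higher with one above 1.

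Among Rabs of the endoplasmic reticulum and Golgi, 5 of 13 were higher and 2 lower, or 3 and 2 of the 11 with a mean of at least 20 in both groups. The shares over all genes tested, here and for the groups that follow, were 19.9% higher and 13.4% lower. Among all genes with a mean of at least 20 in both groups they were 19.2% and 16%. Rab33b, a Golgi Rab that also binds the autophagy protein ATG16L1, had normalized counts of 1335 and 1409 under the WT label and of 4646 and 4673 under the knockout label. The groups stood well apart, with means of 1372 ± 52.3 and 4660 ± 19.0 (SD, n = 2 each), a 3.40-fold rise (log2 1.76, SE 0.06, adjusted p = 5.23e-06 by limma). Its gene (ENSMUSG00000027739.9, chromosome 3, 51483920 to 51496232, plus strand, mm10) shares 661 exonic bases with the opposite-strand gene model Gm38160, which was higher too but low (39.7 to 40.8 normalized counts against 105 to 106). Rab30, another Golgi Rab, had 3.05 and 14.3 against 206 and 293. From summed reads its ratio was 28.8, with an exact binomial 95% interval of 17.8 to 49.8 that covers counting error only. Rab36, which positions late endosomes from the Golgi, had 15.3 and 16.3 against 76.4 and 49.6, a 3.99-fold rise. Rab30 and Rab36 had entered through the libraries labelled knockout alone, so their direction was partly set by the rule. The interval for Rab30 is no test of it.

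Smaller rises in the same group were those of Rab43 (3527 and 3591 against 4350 and 4439), a Golgi Rab with a known part in cross-presentation by dendritic cells, and Rab6b (1477 and 1440 against 1783 and 1834), a Golgi Rab best known from neurons. Their log2 fold changes were 0.30 and 0.31, and neither passed with median centring. Rab43 shares 4164 exonic bases with the same-strand gene model Gm45140 (83.7 to 123 normalized counts against 158 to 177), and reads there cannot be told apart. Rab19, a Golgi-linked Rab, fell from 2877 and 2726 to 1950 and 1868, with means of 2802 ± 106 and 1909 ± 57.9 (SD, n = 2 each). The fall was 0.55 on the log2 scale (SE 0.06, adjusted p = 0.00103 by limma), and its gene lies on chromosome 6 (ENSMUSG00000029923.4, 39381175 to 39390380, plus strand, mm10). Rab2b, a Golgi Rab, went from 856 and 862 to 701 and 627 and fell by 0.37. On the opposite strand, 2469 of its exonic bases are shared with the model Gm43766, which was higher (31.7 to 36.6 against 97.0 to 129). The main carriers of this route did not pass the test: Rab1a, Rab1b, Rab2a, Rab6a and Rab18 lay between -0.11 and 0.07 on the log2 scale, and Rab34 overlapped between groups (51.9 and 36.8 against 88.2 and 30.2).

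Among Rabs of the early endosome, 3 of 7 were higher and 1 lower. Rab31, which moves cargo between the trans-Golgi and endosomes, had 335 and 289 against 505 and 415 (log2 0.55, adjusted p = 0.0358 by limma). Rab21, a Rab of integrin uptake, had 1066 and 824 against 1285 and 1372 (log2 0.50, adjusted p = 0.0288 by limma). The WT-labelled libraries of Rab21 differed from each other by about as much as from the nearest library labelled knockout. Rab5b was the only Rab5 isoform to pass, from 3492 and 3368 to 4183 and 3804. Rab20, a Rab of phagosomes that is known from macrophages, fell by 0.63, from 441 and 444 to 268 and 305. Rab5a, Rab5c and Rab22a had log2 fold changes of -0.05, -0.07 and 0.14 and did not pass.

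Recycling Rabs had small changes. Rab14, which links endosomes and the trans-Golgi, had 7194 and 7446 against 8491 and 9011 (log2 0.26), and Rab4b, a Rab of rapid return to the surface, 5479 and 5882 against 6371 and 6405 (log2 0.17). These were the only 2 of 6 called, and both are among those whose sign turned with median centring. Rab4b shares 1280 exonic bases with the same-strand gene model Gm21983, which had 0 to 5.84 normalized counts over the libraries. Rab11a, Rab11b and Rab35, the other main recycling Rabs, lay between -0.03 and 0.02 on the log2 scale. Rab4a had a log2 fold change of 0.26 at an adjusted p of 0.0594 by limma.

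Among Rabs of late endosomes, lysosomes and autophagy, 3 of 7 were higher and 0 lower, or 2 of the 6 with a mean of at least 20 in both groups. Rab7b, a Rab of traffic from late endosomes to the trans-Golgi that is known from monocytes and dendritic cells, had 108 and 78.6 under the WT label and 562 and 654 under the knockout label. The means were 93.3 ± 20.7 and 608 ± 64.8 (SD, n = 2 each), a 6.52-fold rise (log2 2.71, SE 0.20, adjusted p = 1.68e-04 by limma). Rab7b (ENSMUSG00000052688.12) lies on chromosome 1, 131688695 to 131715439, plus strand, mm10. Rab39, a Rab of phagosome maturation, had 0 and 4.08 against 77.4 and 45.7, so its size hangs on WT-labelled replicate 2, whose 4 reads were the only ones in that group. From summed reads the ratio was 30.2, with an exact binomial 95% interval of 11.5 to 112. Rab39 had entered through the libraries labelled knockout alone, so this interval is no test of its direction.

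Rab24, an unusual Rab linked to autophagy, had 3723 and 3835 against 6039 and 6318. The means were 3779 ± 79.6 and 6178 ± 198 (SD, n = 2 each), a 1.63-fold rise (log2 0.71, SE 0.05, adjusted p = 1.16e-04 by limma). Its gene (ENSMUSG00000034789.8, chromosome 13, 55319743 to 55321946, minus strand, mm10) shares 1258 exonic bases with the opposite-strand gene Prelid1. No source used here says whether the counts used strand, so reads of the 2 genes cannot be told apart. Prelid1 fell, from 24191 and 25230 to 20413 and 19938. Rab7, the main Rab of the late endosome and lysosome, had 14020 and 13221 against 14320 and 14419 (log2 0.08, adjusted p = 0.196 by limma). Rab9, Rab12 and Rab39b did not pass either, with log2 fold changes of 0.09, 0.22 and -0.69.

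Rabs of secretory granules, exocytosis and lysosome-related organelles moved in both directions, with 5 of 12 higher and 3 lower, or 3 and 3 of the 9 with a mean of at least 20 in both groups. Rab44, a large Rab known from degranulation of mast cells, had 0 reads in both WT-labelled libraries against 91.1 and 132, at least 36.5-fold higher on a floor of 3 reads per library. Rab38 and Rab32 act together in building lysosome-related organelles such as melanosomes. Rab38 had 0 and 6.13 against 43.1 and 41.9, a ratio of summed reads of 13.9 with an exact binomial 95% interval of 6.13 to 38.9. Rab44 and Rab38 had entered through the libraries labelled knockout alone, so their direction was partly set by the rule. Neither the bound nor the interval is a test of it. Rab32 rose 2.09-fold, from 272 and 221 to 514 and 514 (log2 1.07, SE 0.15, adjusted p = 0.00238 by limma). Rab27b, a Rab of granule docking, had 32.6 and 26.5 against 77.4 and 65.2 (log2 1.24, SE 0.30, adjusted p = 0.0227 by limma). Rab3d, another granule Rab, had 2031 and 1919 against 2402 and 2328.

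The decreases of this group were in abundant Rabs. Rab8a, which brings vesicles from the Golgi and recycling endosomes to the plasma membrane, had 23490 and 21955 against 16397 and 17252. The means were 22722 ± 1086 and 16825 ± 604 (SD, n = 2 each), so Rab8a fell by 0.43 on the log2 scale (SE 0.05, adjusted p = 7.68e-04 by limma). It gave 13.2% and 12.7% of the members' reads under the WT label and 9.34% and 9.73% under the knockout label, from its gene on chromosome 8 (ENSMUSG00000003037.16, 72161200 to 72183904, plus strand, mm10). Rab37, a Rab of secretory granules, went from 4763 and 4731 to 3058 and 3083, with means of 4747 ± 22.6 and 3070 ± 17.4 (SD, n = 2 each). It fell by 0.63 (SE 0.05, adjusted p = 1.73e-04 by limma) and lies on chromosome 11 (ENSMUSG00000020732.13, 115091431 to 115162236, plus strand, mm10). Rab8b fell by 0.26, from 8101 and 8613 to 7202 and 6775. For scale, the 11 CD8 T cell markers had log2 fold changes from -0.81 to -0.01, with a median of -0.63. Any link between those markers and these decreases was not tested. Rab10, Rab3a, Rab26 and Rab13 did not pass, and Rab13 held only 4.07 and 21.4 against 24.5 and 33.1.

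In the remaining group, Rab23, a negative regulator of Hedgehog signalling, fell by 0.48, from 590 and 634 to 441 and 438. Rab28, a Rab of the cilium base, fell by 0.36, from 1467 and 1481 to 1167 and 1126. Rab29, a partner of the kinase LRRK2 at the trans-Golgi, and Rab40c, which carries a box for ubiquitin ligases, had log2 fold changes of -0.02 and -0.04 and overlapped between groups.

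**Figure D2:**
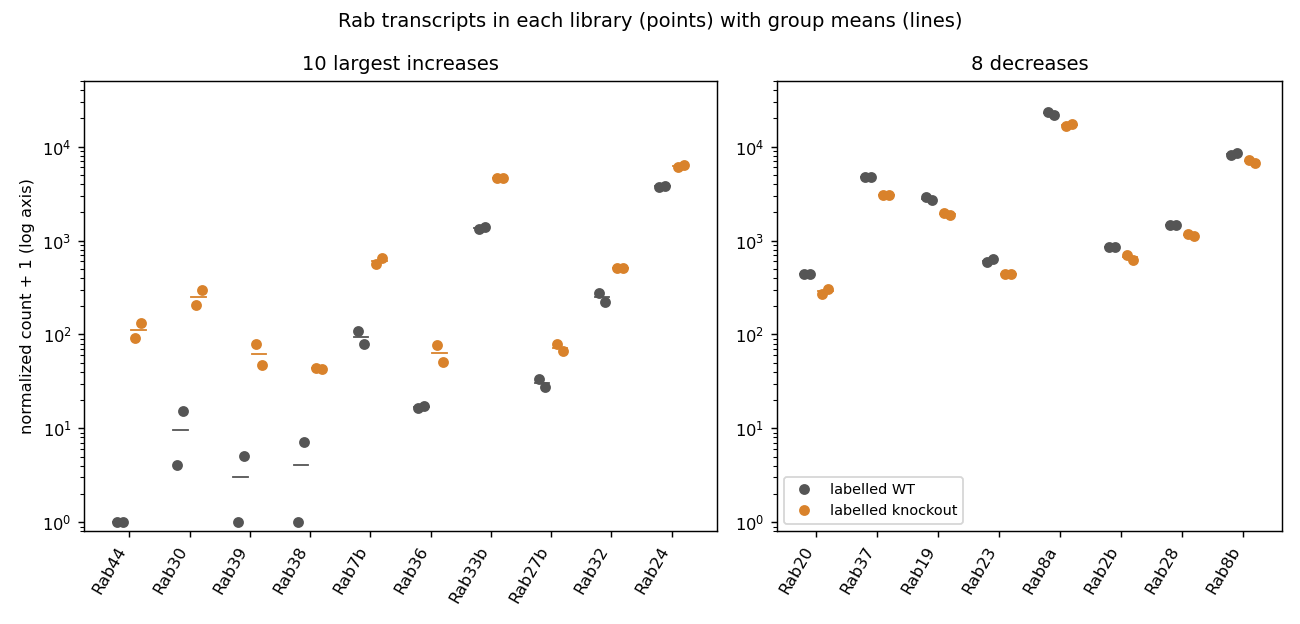
Normalized count plus 1 (log axis) in each library for the 10 largest increases and the 8 decreases among Rab transcripts past the limma threshold, with points for single libraries and lines for group means. Only members whose groups do not overlap were drawn, so the lack of overlap among the 18 was set by that choice. Over all genes tested 68.8% had no overlap. The 2 libraries of a group are farthest apart for Rab30, Rab38 and Rab39, which had 0 to 14.3 in the libraries labelled WT. Rab30, Rab36, Rab38, Rab39 and Rab44 entered through the libraries labelled knockout alone, so their direction was partly set by the rule.

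Per kilobase of merged exons, the most abundant Rab transcripts were Rab5c (mean of 6156 normalized counts per kilobase over the 4 libraries), Rab7 (5362), Rab1b (5272), Rab8a (4227) and Rab4b (3063), and the lowest was Rab27b (4.72). Rab7 and Rab1b overlapped in these levels (5065 to 5524 against 5056 to 5691 over the libraries), and Rab5c (6001 to 6393) was above both in each library. Of the 5, only Rab8a and Rab4b passed the test between the labelled groups. Among the 31 members with a mean normalized count of at least 1000, 9 were higher and 5 lower, the median log2 fold change was 0.04, and 1.76 (Rab33b) was the highest. Those shares were 29% and 16.1%, beside 21.8% and 24.1% of all genes at that level. Among the 18 under 1000, 9 were higher and 3 lower, with a median of 0.81. Here the shares were 50% and 16.7%, beside 18.6% and 5.69% of all genes under 1000. Genes tested that were under 1000 had a median of 0.10, and 24.2% were called in either direction, while 45.9% were called among those of at least 1000. Of the 18 low members, 6 had entered through the libraries labelled knockout, so their direction was partly set by the rule.

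**Figure D3:**
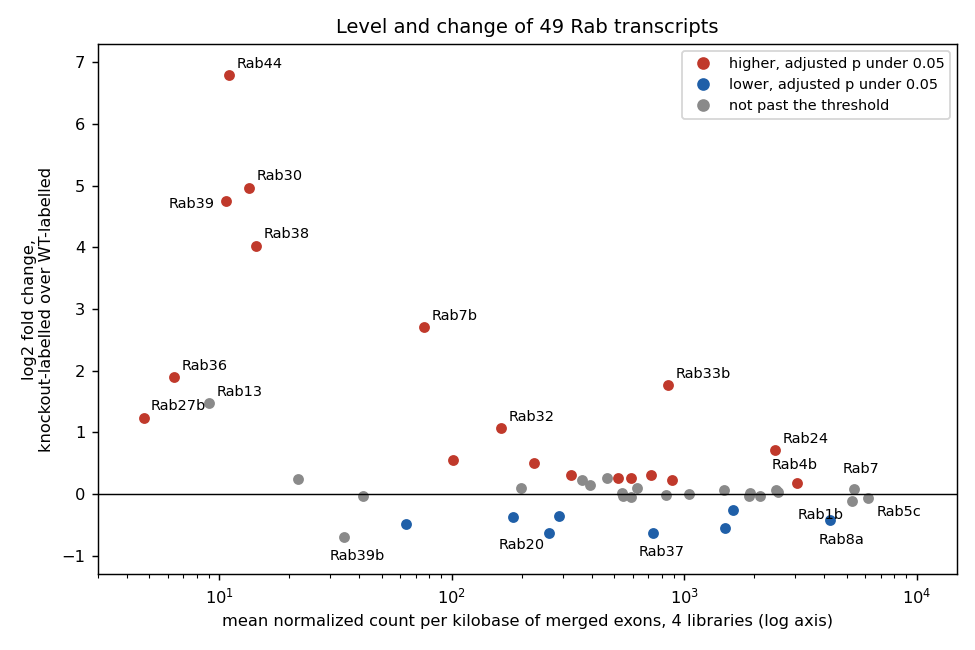
Mean normalized count per kilobase of merged exons over 4 libraries (x axis, log) against the log2 fold change of knockout-labelled over WT-labelled libraries (y axis) for the 49 Rab transcripts, coloured by the limma call. Rab33b (1.76) and Rab24 (0.71) are the large increases among abundant Rabs, and Rab8a is the only one called lower among the 5 highest.

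Like-named Rabs often differed within a library. The ratio of Rab7b to Rab7 was 0.00769 and 0.00595 under the WT label and 0.0393 and 0.0454 under the knockout label. Rab2b relative to Rab2a went from 0.163 and 0.167 to 0.129 and 0.115, and Rab6b relative to Rab6a from 0.365 and 0.380 to 0.453 and 0.473. In each of these pairs the more abundant member, Rab7, Rab2a or Rab6a, did not pass the test, but this did not hold for all pairs compared. The more abundant member passed for Rab8a over Rab8b, Rab4b over Rab4a, Rab3d over Rab3a and Rab5b over Rab5a. It also passed for Rab32 over Rab38 and Rab33b over Rab33a. It did not pass for Rab5c over Rab5b, Rab11b over Rab11a, Rab1b over Rab1a, Rab22a over Rab31 and Rab39b over Rab39. Rab39, which had entered through the libraries labelled knockout alone, passed as higher. Rab39b, its relative on the X chromosome, had 141 and 146 against 111 and 71.1 (log2 -0.69, adjusted p = 0.0972 by limma). Rab11a relative to Rab11b overlapped between groups, at 0.468 and 0.503 against 0.510 and 0.496. Differences between paralogs were not tested beyond these values. Over the 14 pairs compared, the longest run of identical transcript bases was 14 to 38, the upper value being that of Rab1a and Rab1b.

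The genes that act on Rab proteins moved in both directions too. Of 135 tested on 6 lists, 42 were higher and 23 lower, where 19.9% and 13.4% of all genes tested were. Those shares depend on level. Of all genes with a mean of at least 1000, where many list genes lie, 21.8% were higher and 24.1% lower. Under 1000 it was 18.6% and 5.69%. The lists were not matched for level, so their counts are no sign of an excess. The balance depends on the scaling, since median centring gave 28 higher and 67 lower (exchange factors 7 and 17, TBC domain genes 9 and 18, effectors 7 and 17, tethers 2 and 10). The lists had fewer calls when a knockout-labelled library was left out, at 19 and 8 for replicate 1 and 20 and 7 for replicate 2. Among 7 genes of prenylation and GDI recycling, 1 was higher and 2 lower. Rabac1, a Golgi receptor for prenylated Rabs, fell by 0.42, and Rabggta, a subunit of the enzyme that adds the lipid, by 0.28. The other 4 did not pass, so the list's median was -0.03.

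Of 36 exchange factors, 14 were higher and 9 lower (median 0.06). Rab3il1, an exchange factor for Rab8 proteins, rose 8.67-fold, from 93.6 and 67.4 to 680 and 716 (adjusted p = 7.83e-05 by limma). Ankrd27, which acts on Rab21, rose 1.47-fold. Dennd4a and Dennd4c, exchange factors for Rab10, fell by 0.42 and 0.62 and Rin3, one for Rab5 proteins, by 0.34, while Rab10 itself did not pass (log2 0.04).

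Of 36 TBC domain genes tested, 9 were higher and 4 lower (median 0.09). Tbc1d8 changed more than any Rab with reads in both groups, from 159 and 158 to 10739 and 10839, a 68.1-fold rise (log2 6.08, SE 0.07, adjusted p = 8.66e-08 by limma). Tbc1d4, known for holding glucose transporter vesicles through Rab8a, Rab10 and Rab14, rose 3.21-fold (1348 and 1327 against 4317 and 4276). Evi5, which acts in recycling with Rab11, rose 6.33-fold. Tbc1d10c, an inhibitor of calcineurin in lymphocytes, fell by 0.36, Tbc1d2b by 0.34 and Tbc1d8b by 0.47.

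Of 36 effectors tested, 11 were higher and 6 lower (median 0.02). Plekhm3 rose 4.13-fold, Rilpl2, which binds phosphorylated Rab8 and Rab10, 2.15-fold, and Myo5a, a myosin motor that Rabs recruit, 2.90-fold. Rab11fip4, an effector of Rab11, fell by 0.61, and Sytl3 and Sytl2, granule tethers of the synaptotagmin-like family, by 0.51 each. Of 17 subunits of the HOPS, CORVET and exocyst tethers, 4 were higher and 2 lower (median 0.09). The higher ones named by rule, Vps39, Vps8 and Vps11, belong to HOPS or CORVET and rose by 0.61, 0.62 and 0.43 on the log2 scale. Both lower ones, Exoc2 and Exoc3, belong to the exocyst and fell by 0.22 and 0.23. The Rab kinases Lrrk2 and Lrrk1 and the Rab phosphatase Ppm1h were all higher, by 2.42, 0.17 and 0.31 on the log2 scale, but with median centring Lrrk1 had -0.13 and Ppm1h 0.01, and neither passed. Of these 3, only Lrrk2 passed when either knockout-labelled library was left out. Of the other list genes named, Ankrd27, Rabac1, Rabggta, Tbc1d2b, Tbc1d8b, Exoc2 and Exoc3 lost their call without either knockout-labelled library. Exoc3 also lost it without WT-labelled replicate 2, Rin3 without knockout-labelled replicate 1, and Vps11 without knockout-labelled replicate 2 and with median centring (0.13). Lrrk2 was low, at 38.7 and 34.7 against 239 and 167. The dendritic cell markers given above were higher in the same libraries, and their part in these lists was not tested.

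**Figure D4:**
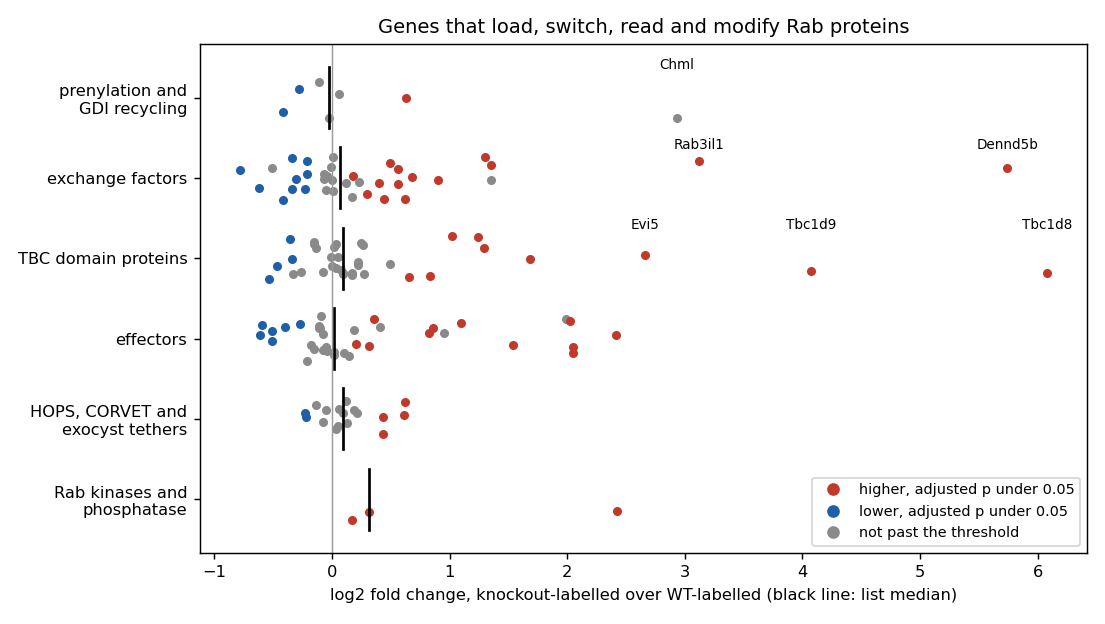
Log2 fold change (x axis, knockout-labelled over WT-labelled) of each tested gene on the 6 lists of Rab regulators and effectors, 1 point per gene with vertical scatter for visibility, a black line at each list's median, and colour for the limma call. The medians lie between -0.03 and 0.31, and the points farthest to the right are named.

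The deposited table's own comparison gave a like picture. In the authors' deposited table, 16 of the 49 members were higher and 7 lower in the knockout columns at an adjusted p under 0.05, beside 15.5% and 10.1% of its 21629 genes with an adjusted p. All 23 were also called here in the same direction. Rab2b, Rab27b and Rab31 were called here and not in the authors' deposited table.

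**Figure D5:**
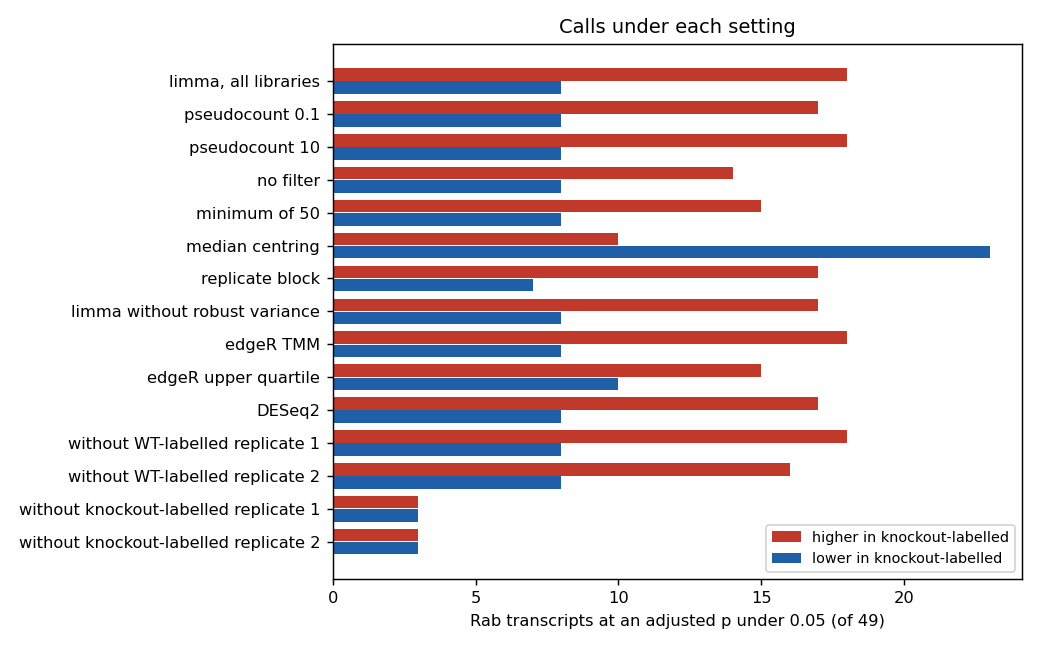
Number of the 49 Rab transcripts at an adjusted p under 0.05 (x axis) under each setting (y axis), red for higher and blue for lower in the libraries labelled knockout. The settings without a knockout-labelled library leave 3 higher and 3 lower, and median centring is the only setting with fewer higher (10) than lower (23).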

How the data were processed

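The authors deposited normalized counts (a signal scaled per library, per the file headers and the values), with a log2 fold change, its error, a Wald score and p-values under DESeq2's column names. Trim Galore 0.4.4, HISAT2 2.2.1, StringTie 2.1.4, DESeq2 and mm10 are named in the submitters' processing notes. Neither annotation nor strand use is given in the sources used here. Values were whole multiples of 1 step per library (100% within 0.01 reads), so reads were recovered for count tests and bounds. Bounds and intervals cover counting error only.

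Genes with at least 10 in 2 or more libraries were tested with limma 3.58.1 (trend, robust) on log2(value + 1), a scale that can understate changes of low genes, or overstate them where replicates are low and unequal. P-values are two-sided, Benjamini-Hochberg adjusted over 18378 genes. The script was tested on simulated counts, where it recovered 50.6% of 1.5-fold and 96.6% of 2-fold changes, with 6.51% of calls false. A small change can therefore go uncalled. The simulation gave every gene the same dispersion and changed, in both directions, only a small part of the genes, none of them at the lowest levels. Its rates need not hold for low members or for data with as many changes as these. Libraries of a group differed beyond sampling noise (chi-square per degree of freedom 21.7 and 6.45) and counted as replicates. Alternatives included edgeR 4.0.16 and DESeq2 1.42.0 on recovered reads. Members and lists were chosen with earlier results of these data known. Any member could be named. By plan, values per library went to the 10 largest increases and decreases, the 5 highest per kilobase and up to 2 per group and direction. Outside that plan they were also given for Rab43, Rab6b, Rab5b, Rab3d, Rab13, Rab34 and Rab39b. List genes were named from the 3 smallest p per direction. Gene positions and exon lengths came from GENCODE M21, promoters from RefSeq (GRCm38.p6). Some genes taken by the naming rule are not reported here.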

Additional observations from a re-analysis of the deposited data

How the results depend on the processing

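The counts of Rab transcripts called (18 higher, 8 lower) stayed within 1.5 times under 11 of 14 alternatives, among them edgeR with TMM factors (18 and 8, and 3691 and 2652 over all genes), DESeq2 (17 and 8) and no filter (14 and 8). Median centring gave 10 and 23, and leaving out 1 library gave 3 to 18 higher and 3 to 8 lower. For all genes (3662 higher and 2469 lower) the counts were 2389 and 7210 with median centring and 1309 to 4137 and 630 to 2759 without 1 library. For the 6 lists (42 and 23) centring gave 28 higher and 67 lower, and leaving out 1 library gave 19 to 45 higher and 7 to 25 lower. The members' median of 0.09 became -0.21 with centring, 0.00 with upper-quartile factors in edgeR, and 0.05 to 0.12 without 1 library. Centring, whose construction shifts every gene by the same amount, turned Rab14 to -0.04, Rab4b to -0.13, Rab3d to -0.04 and Rab5b to -0.08. It called Rab2a (-0.24), Rab7 (-0.22), Rab11a (-0.28), Rab1a (-0.23), Rab10 (-0.26) and Rab18 (-0.29) lower, and turned Lrrk1 to -0.13. A fit that leaves 1 library in a group assumes that it varies like the others. The replicate block gave 17 higher and 7 lower. Same-numbered libraries share only a number (correlation of their deviations 0.017 across genes). At these depths a gene with 0 reads can hold up to 3.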
